A study of Mus musculus with 20 samples.

Results

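The genes described here are 9 genes of the myelin sheath and of the mature oligodendrocytes that make it: Mbp, Mobp, Cnp, Mag, Mog, Opalin, Cldn11, Mal and Ermn. They were chosen by name, with earlier results of these data known. The names were matched to the Ensembl gene identifiers of the count tables, which list 46078 genes. All 9 had a row, and all 9 passed the filter on low counts in every comparison. The count tables come from 20 brain RNA libraries of 10 wild-type C57BL/6J mice aged 18 months. Every mouse had received a DH stroke, in which the distal middle cerebral artery is permanently occluded by cauterization and the animal is then kept in hypoxia, and was sampled 7 weeks later. From week 1 the mice were injected subcutaneously 3 times a week for 6 weeks, with sterile PBS as the vehicle or with 4 g/kg HPBCD (hydroxypropyl-beta-cyclodextrin), a ring-shaped sugar that carries cholesterol and other lipophilic molecules in water. The 2 regions taken were the peri-infarct tissue beside the removed infarct and the matching contralateral tissue, which gave 4 groups of 5 libraries: vehicle peri-infarct, vehicle contralateral, HPBCD peri-infarct and HPBCD contralateral. The contralateral tissue is the opposite hemisphere of a stroked animal, so no library comes from a brain without a stroke. The counts hold no transcript that checks which animals received HPBCD, and the groups are named as labelled. The direction of every treatment comparison and of the interaction therefore rests on the labels alone, and an exchange of the treatment labels, which was not tested, would turn the sign of each. Libraries with the same number and treatment come from the same animal.

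Oligodendrocytes wrap the axons of the central nervous system in a compacted, cholesterol-rich membrane. New ones arise in the adult brain from precursor cells that pass through a short-lived premyelinating stage. Late in that sequence, under the transcription factors SOX10 and MYRF, the cells switch on the proteins of the sheath. After a stroke, myelin is lost in and around the infarct, and its debris is taken up by phagocytes. In bulk tissue, a higher level of these transcripts cannot be told apart from more oligodendrocytes, more RNA per oligodendrocyte, or less RNA from the other cells of the sample.

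The proteins of the 9 genes sit in different parts of the sheath. Mbp encodes myelin basic protein, which holds the cytoplasmic faces of the membrane together, and Mobp encodes a late protein of the same compact layers. Cnp encodes the phosphodiesterase that keeps cytoplasmic channels open in the sheath. Mag encodes the adhesion molecule of the membrane facing the axon, Mog a protein of the outermost lamella, and Opalin a glycoprotein of the paranodal loops. Cldn11 encodes the claudin of the tight junctions between the wraps, and it is also made by barrier cells of the arachnoid. Mal encodes a proteolipid of raft trafficking, and Ermn an actin-binding protein of the late oligodendrocyte. In the GRCm38 annotation (GENCODE M21), Mbp lies on chromosome 18 from 82475146 to 82585637, and its row also counts the longer Golli transcripts, which are not confined to myelin. Mobp lies on chromosome 9 from 120149707 to 120181484, Cnp on chromosome 11 from 100574904 to 100591729, and Mag on chromosome 7 from 30899176 to 30914873. Mog lies on chromosome 17 from 37010743 to 37023398, Opalin on chromosome 19 from 41061710 to 41077113, and Cldn11 on chromosome 3 from 31149920 to 31164324. Mal and Ermn are both on chromosome 2, from 127633226 to 127656695 and from 58045113 to 58052864. Exons of Cnp share 154 bp with Dnajc7 on the opposite strand and exons of Ermn share 237 bp with Galnt5 on the opposite strand, and whether the counting used strand is not given in the sources used here.

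The libraries held between 14445021 and 22171627 counts assigned to genes. Levels are given as CPM, counts scaled to a common library size, after TMM normalization over all 20 libraries. Each member had between 280 and 197049 counts in every library. One library stood apart in its sequencing: HPBCD contralateral 4 had the lowest gene count, and 9.5% of its reads fell outside genes and 8.03% in overlaps of genes, against at most 5.86% and 4.16% in the other libraries. No pair of count tables was identical.

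The 9 transcripts made up 0.525% to 1.37% of all gene counts, as group means. In the HPBCD peri-infarct libraries this share was 1.37% ± 0.24 (SD, n = 5), with a range of 1.09% to 1.66%. In the HPBCD contralateral libraries it was 0.525% ± 0.043 (SD, n = 5), with a range of 0.458% to 0.575%. In the vehicle libraries it was 0.815% ± 0.285 (SD, n = 5) beside the infarct and 0.745% ± 0.278 (SD, n = 5) on the other side. The vehicle ranges of 0.516% to 1.24% and 0.38% to 0.956% overlapped.

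Per kilobase of exon, Mbp was the most abundant member, with a mean of 959 CPM per kb in the HPBCD peri-infarct libraries and 589 CPM per kb in the vehicle contralateral libraries. Mobp came next with 436 and 251 CPM per kb. Cldn11, Cnp and Mal followed at 178, 158 and 141 CPM per kb in the HPBCD peri-infarct libraries, but in the vehicle contralateral libraries the order was Cnp, Mal and Cldn11 at 92.0, 87.7 and 60.6 CPM per kb. Mag, Ermn and Mog lay between 38.6 and 54.3 CPM per kb in the HPBCD peri-infarct libraries. Opalin was the least abundant, at 11.5 CPM per kb there and 9.30 CPM per kb in the vehicle contralateral libraries.

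**Figure D1:**
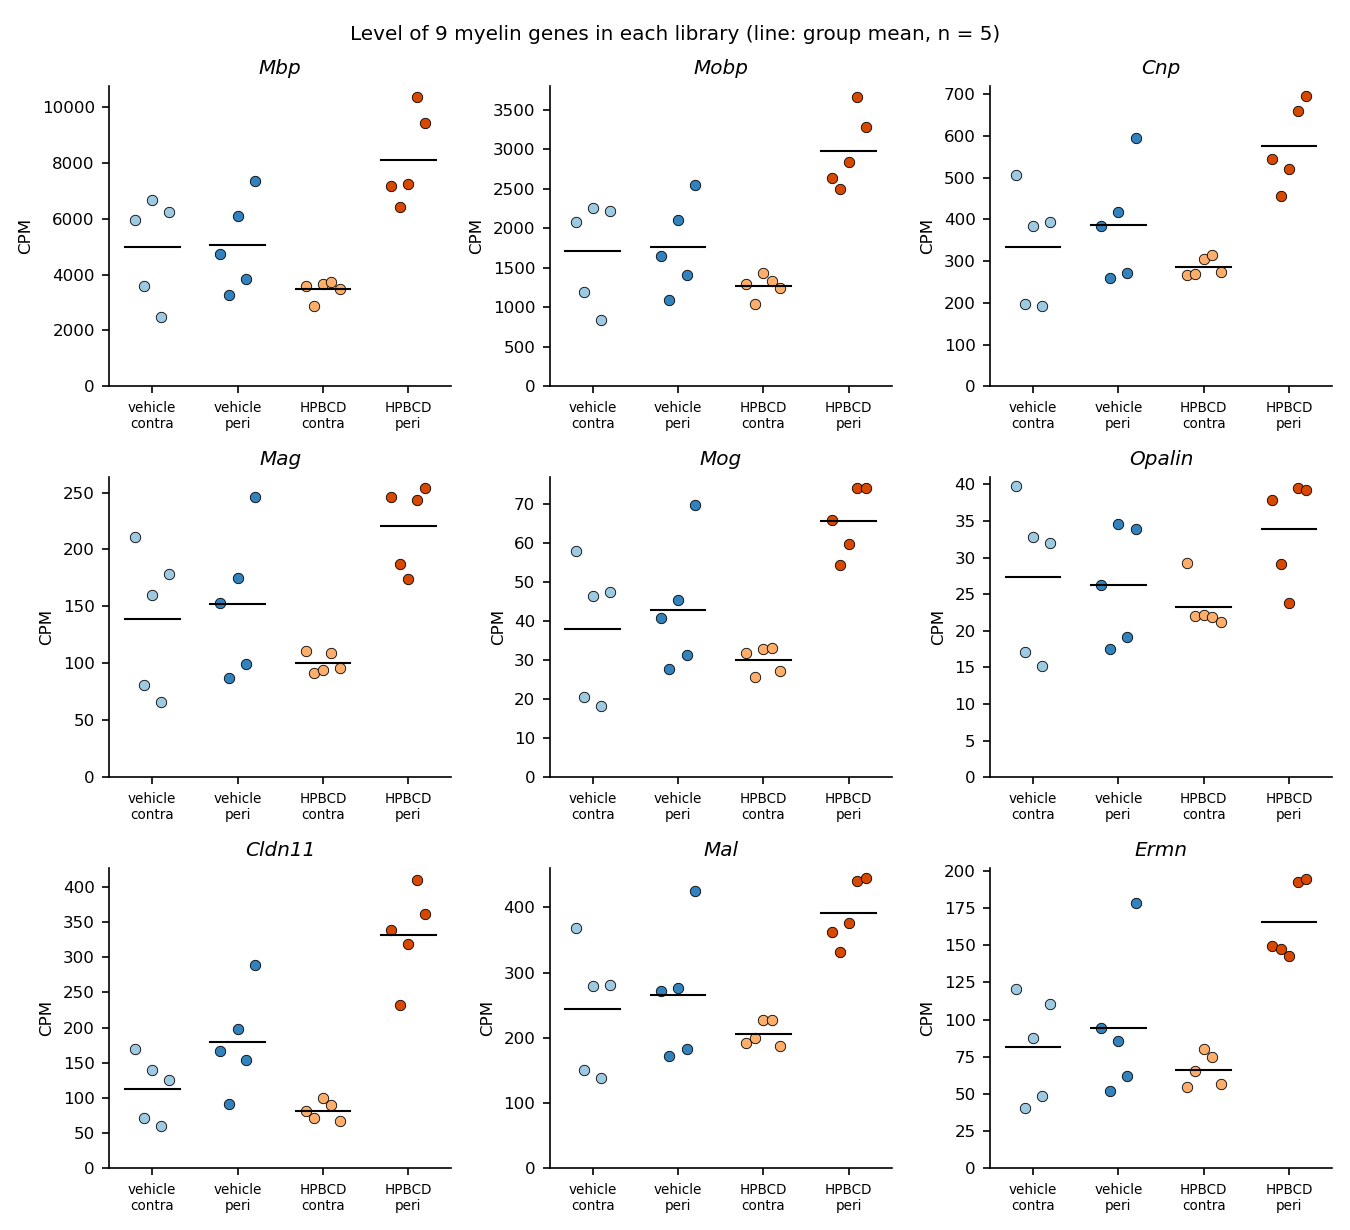
CPM of each of the 9 genes (vertical axes, linear, from 0) in each of the 20 libraries, by group; points are libraries and lines are group means of 5. The HPBCD contralateral points lie close together and below the HPBCD peri-infarct points for 8 genes, with overlap for Opalin, while the vehicle points of both regions overlap for every gene.

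The first question was whether the peri-infarct tissue of vehicle-treated animals differed from the other hemisphere in these genes 7 weeks after the stroke. For the 9 myelin genes no difference was called. The level of Mbp was 4747, 3269, 6119, 3838 and 7365 CPM in vehicle peri-infarct 1 to 5 and 5957, 3590.4, 6661, 2480.1 and 6242 CPM in the contralateral libraries of the same animals. The groups overlapped, and the log2 fold change was 0.01 (SE 0.29), with a 95% interval of -0.61 to 0.63 (adjusted p = 0.985, edgeR quasi-likelihood test, Benjamini-Hochberg adjustment over 15801 genes). Mobp, Mag, Mal, Mog, Cnp and Ermn had log2 fold changes of 0.02 to 0.20, and Opalin one of -0.07, all with adjusted p of 0.685 or more. The 95% interval of each of these 8 genes included 0, and over the 8 the lowest bound was -0.69 and the highest 0.98.

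Cldn11 had the highest value of the 9 in this comparison. Its level was 167, 91.1, 198, 154 and 289 CPM in vehicle peri-infarct 1 to 5 and 169.7, 71.5, 139.7, 60.6 and 125 CPM on the contralateral side. The peri-infarct libraries lay higher in 4 of 5 animals, but the groups overlapped. The log2 fold change was 0.65 (SE 0.32, adjusted p = 0.172, edgeR), and it was 0.42 without vehicle peri-infarct 5. When the animal was taken into the fit as a replicate block, which pairs the 2 regions of each animal, the log2 fold change of Cldn11 was 0.66 with an edgeR adjusted p of 0.0461, and it was then called.

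These 0 of 9 calls, 0 of 9 also at an unadjusted p under 0.05 in edgeR and 0 of 9 with DESeq2 and with limma voom, stand beside a background in which 20.2% of all genes tested were called, 10.5% higher and 9.7% lower. In none of the 9 were the groups separate, against 13.4% of all genes. The median log2 fold change of the members was 0.11, against 0.01 over all genes tested.

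Other genes of the oligodendrocyte lineage were also read in the vehicle animals; differences between these lists and the myelin genes were not tested. Of 8 genes of precursors and newly formed oligodendrocytes, 6 rose and none fell, among them C1ql1, a secreted protein of precursors (log2 fold change 0.75, SE 0.13, adjusted p = 0.00391 in edgeR), and Gpr17, a receptor of the premyelinating stage (0.73, SE 0.19, adjusted p = 0.0179 in edgeR). Of 17 other genes of mature oligodendrocytes, 1 rose and 1 fell, with a median log2 fold change of 0.05. The riser was Apod, an apolipoprotein that astrocytes and fibroblasts also make (1.32, SE 0.33, adjusted p = 0.0185 in edgeR), and the faller was Omg, a glycoprotein that neurons also make (-0.24, SE 0.06, adjusted p = 0.0136 in edgeR). None of 6 genes of myelin lipid synthesis and none of 6 transcription factors of the lineage passed the test.

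In the animals labelled HPBCD, all 9 myelin genes were higher in the peri-infarct tissue. The fitted fold was 1.89 to 2.49 for 7 of them, 4.04 for Cldn11 and 1.45 for Opalin. The level of Mbp was 7167, 6418, 7236, 10365 and 9438 CPM in HPBCD peri-infarct 1 to 5 and 3609.9, 2885, 3676, 3749 and 3473 CPM in HPBCD contralateral 1 to 5. Every peri-infarct library lay above every contralateral library. The log2 fold change of Mbp was 1.22 (SE 0.15, 95% interval 0.89 to 1.55, adjusted p = 2.45e-05 in edgeR).

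For Mobp the peri-infarct libraries measured 2641, 2501, 2843, 3660.1 and 3276 CPM and the contralateral ones 1297, 1046, 1429, 1327 and 1247 CPM. The groups again did not overlap, and the log2 fold change was 1.23 (SE 0.13, adjusted p = 7.71e-06 in edgeR). Ermn rose by 1.32 on the log2 scale (SE 0.14, from 66.3 ± 11.2 to 165 ± 25.7 CPM), Mag by 1.14 (SE 0.12, from 100.2 ± 8.93 to 221 ± 37.4 CPM) and Mog by 1.12 (SE 0.11, from 30.2 ± 3.48 to 65.7 ± 8.75 CPM; SD, n = 5 for each mean). Cnp rose by 1.01 (SE 0.12, from 285 ± 22.8 to 575 ± 99.8 CPM) and Mal by 0.92 (SE 0.10, from 207 ± 19.0 to 391 ± 49.7 CPM). For these 5 genes the groups did not overlap, and the edgeR adjusted p lay between 3.71e-06 and 1.58e-05.

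Cldn11 and Opalin marked the ends of the range. The tight junction gene Cldn11 measured 338, 233, 319, 409.6 and 362 CPM in HPBCD peri-infarct 1 to 5 and 81.3, 71.7, 99.9, 89.4 and 67.6 CPM in the contralateral libraries. It rose by 2.01 on the log2 scale (SE 0.15, 95% interval 1.69 to 2.34, adjusted p = 8.48e-07 in edgeR), and its interval lies above those of the other 8 members in this comparison; the difference between members was not tested. The paranodal gene Opalin measured 37.8, 29.1, 23.9, 39.6 and 39.2 CPM beside the infarct and 29.2, 22.1, 22.1, 21.8 and 21.3 CPM on the other side. It was the only member whose groups overlapped, since peri-infarct 2 and 3 lay below contralateral 1. Its log2 fold change was 0.54 (SE 0.15, 95% interval 0.22 to 0.86, adjusted p = 0.00741 in edgeR), and it was not called when all 4 groups were fitted together (adjusted p = 0.0611).

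The 9 of 9 called higher and the 8 of 9 that did not overlap have to be read against a large number of changed genes. In this comparison 30.3% of 16047 genes were called higher, 24.3% were called lower, and 42.5% had groups that did not overlap. The median log2 fold change was 1.14 for the members and 0.03 over all genes tested. All 9 stayed called when any of the 10 libraries was left out, HPBCD contralateral 4 included.

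**Figure D2:**
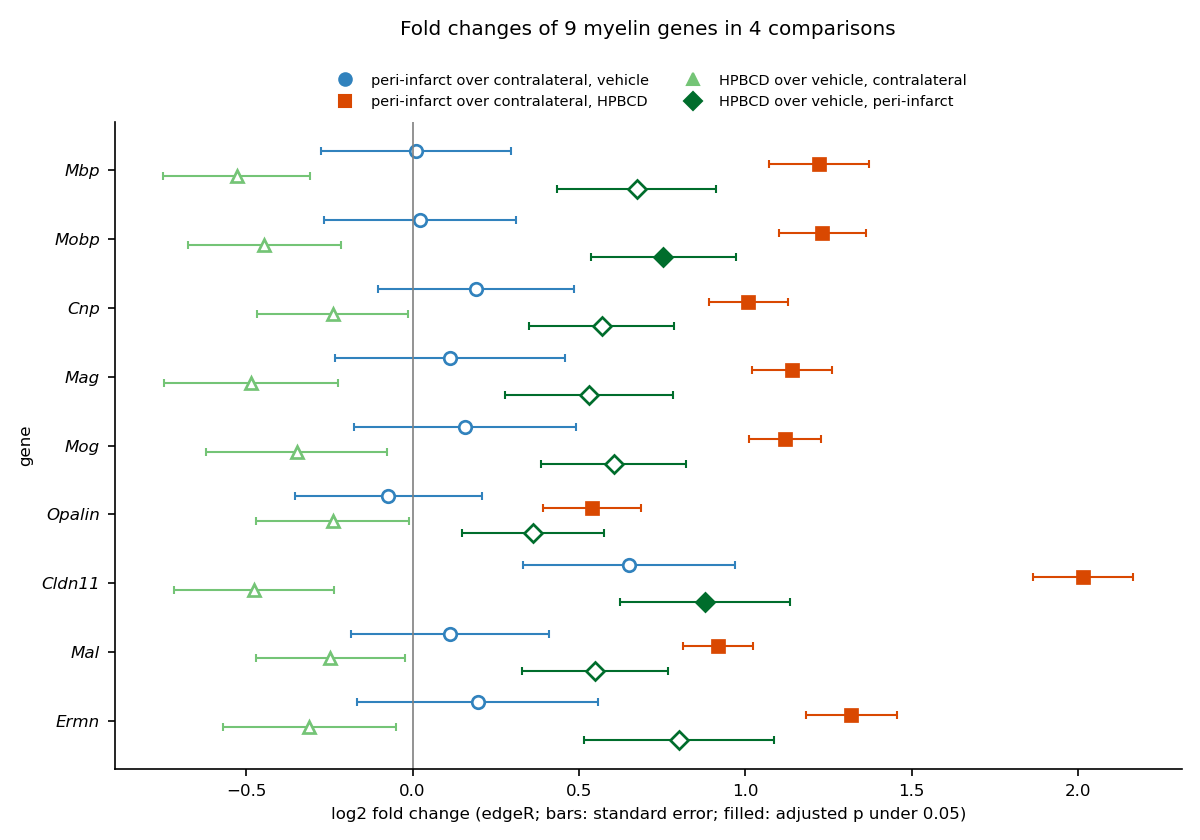
Log2 fold changes (horizontal axis) of the 9 genes in the 4 comparisons of 2 groups; bars are standard errors and filled symbols passed an edgeR adjusted p of 0.05. The values for the 2 regions in HPBCD animals run from 0.54 to 2.01 and are all filled, those in vehicle animals run from -0.07 to 0.65 and are all open.

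Most of the other listed genes of the lineage rose with them in the HPBCD animals. All 6 genes of myelin lipid synthesis rose, led by Elovl1 (log2 fold change 1.33, SE 0.16, adjusted p = 2.47e-05 in edgeR) and Cers2 (1.28, SE 0.10, adjusted p = 1.28e-06 in edgeR), which make the very long fatty acids and ceramides of the sheath. Of the 17 other mature oligodendrocyte genes 16 rose and 1, Omg, fell (-0.61, SE 0.09, adjusted p = 0.000105 in edgeR). The largest rises among them were those of Apod (3.44, SE 0.26, adjusted p = 8.48e-07 in edgeR) and of the iron carrier Trf (1.83, SE 0.32, adjusted p = 0.000403 in edgeR), which shares 2108 bp of exon with another gene model on its strand. Of the 6 transcription factors 5 rose, with Myrf, the factor that switches on myelin genes, at 1.36 (SE 0.12, adjusted p = 1.85e-06 in edgeR) and Nkx6-2 at 1.12 (SE 0.15, adjusted p = 3.42e-05 in edgeR), and Olig2 did not pass (0.18). All 8 genes of precursors and new oligodendrocytes rose, led by Enpp6, a gene of newly forming oligodendrocytes (2.17, SE 0.18, adjusted p = 1.37e-06 in edgeR), and C1ql1 (1.59, SE 0.11, adjusted p = 5.52e-07 in edgeR).

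Since both regions of an animal were sequenced, the difference could be read animal by animal. In the animals labelled HPBCD all 9 genes were higher beside the infarct in 5 of 5 animals. For Mbp the within-animal difference in log2 CPM was 0.99, 1.15, 0.98, 1.47 and 1.44 in HPBCD animals 1 to 5 and -0.33, -0.14, -0.12, 0.63 and 0.24 in vehicle animals 1 to 5. For Cldn11 it was 2.06, 1.70, 1.67, 2.19 and 2.42 in the HPBCD animals and -0.02, 0.35, 0.50, 1.35 and 1.21 in the vehicle animals. The treatments did not overlap for either gene, and vehicle animals 4 and 5 had the highest values among the vehicle animals for both. Vehicle animal 1 had a negative difference for all 9 genes, from -0.60 for Opalin to -0.02 for Cldn11. The within-animal differences of the treatments were separate for 8 of 9 members, all but Opalin, against 10% of all genes tested.

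**Figure D3:**
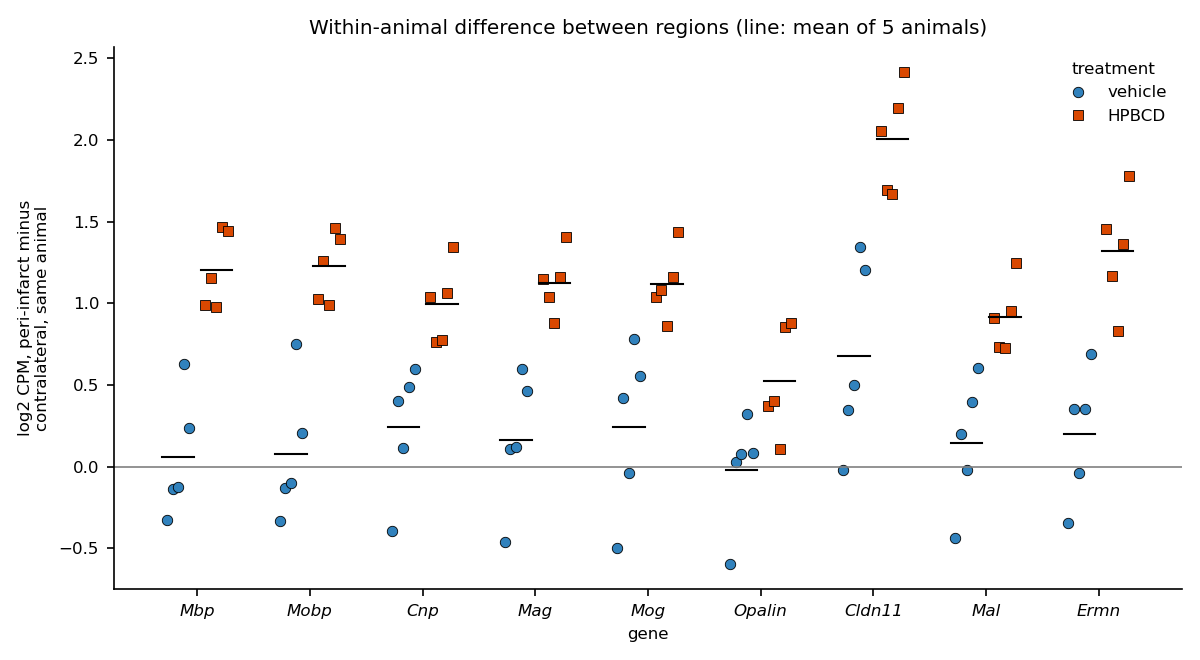
Difference in log2 CPM between the peri-infarct and the contralateral library of the same animal (vertical axis) for each gene, with 5 animals per treatment; lines are means. All HPBCD points are above 0, and they lie above all vehicle points for each gene except Opalin.

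The test of the difference between these differences is the interaction of region and treatment over all 20 libraries. It was positive for 9 of 9 members, with a median of 1.01 on the log2 scale against 0.01 over all 16758 genes tested, and 3 of 9 passed the test. These were Cldn11 (1.35, SE 0.38, adjusted p = 0.0334 in edgeR), Mobp (1.20, SE 0.34, adjusted p = 0.0347 in edgeR) and Mbp (1.20, SE 0.34, adjusted p = 0.0360 in edgeR). The remaining 6 were Ermn at 1.11 (adjusted p = 0.0914 in edgeR), Mag at 1.01, Mog at 0.95, Cnp at 0.81, Mal at 0.79 and Opalin at 0.60 (adjusted p = 0.245 in edgeR). Of all genes tested, 5.03% were called with a positive interaction. With the animal as a replicate block, which compares the within-animal differences directly, 8 of 9 members passed in edgeR and Opalin did not. Without the block the 3 calls depended on single libraries. None of the 9 passed when vehicle peri-infarct 1 or 2, vehicle contralateral 1, 3 or 5, HPBCD peri-infarct 3 or 4, or HPBCD contralateral 1, 2, 4 or 5 was left out. Without HPBCD peri-infarct 5, 2 passed; 7 passed without vehicle peri-infarct 5 and 8 without vehicle contralateral 4.

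Among the other lists, 3 of 6 genes of myelin lipid synthesis, 2 of 8 of precursors and new oligodendrocytes, and 0 of 6 transcription factors had a called positive interaction. Cers2 (0.99, SE 0.24, adjusted p = 0.0212 in edgeR), Bcas1, a gene of early myelinating cells (1.04, SE 0.32, adjusted p = 0.0459 in edgeR), and C1ql1 (0.83, SE 0.17, adjusted p = 0.0156 in edgeR) were among them. Of the 17 other mature genes, Apod had a positive (2.12, SE 0.44, adjusted p = 0.0161 in edgeR) and Omg a negative interaction (-0.38, SE 0.10, adjusted p = 0.0261 in edgeR).

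The question of what HPBCD changed within one region was addressed by comparing the treatments there. These comparisons use the same libraries as the region comparisons above and are not independent of them. In the peri-infarct tissue all 9 genes had a higher mean in the libraries labelled HPBCD, and 2 of 9 were called. Mobp measured 1652, 1092, 2106, 1405 and 2549 CPM in vehicle peri-infarct 1 to 5, against 2501 to 3660.1 CPM in the HPBCD libraries. It rose by 0.75 on the log2 scale (SE 0.22, adjusted p = 0.0340 in edgeR). Cldn11 rose by 0.88 (SE 0.25, adjusted p = 0.0344 in edgeR), with a range of 91.1 to 289 CPM in vehicle and 233 to 409.6 CPM in HPBCD libraries. For both genes the overlap came from vehicle peri-infarct 5, which lay above 1 or more of the HPBCD libraries, while the other 4 vehicle libraries lay below all of them.

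The other 7 had edgeR adjusted p from 0.0632 to 0.226, with log2 fold changes of 0.80 for Ermn, 0.60 for Mog, 0.57 for Cnp, 0.55 for Mal, 0.53 for Mag and 0.36 for Opalin. Mbp was at 0.67 (SE 0.24, 95% interval 0.15 to 1.20, adjusted p = 0.0632 in edgeR). At an unadjusted p under 0.05 edgeR passed 7 of 9, all but Mag and Opalin. The background share called higher was 12.4% of 16224 genes, that called lower 9%, and that of genes whose groups did not overlap 13.4%, against 0 of 9 members. The median log2 fold change was 0.60 for the members and 0.01 over all genes. The number of members called moved with the library left out. It was 0 without vehicle peri-infarct 1, 2 or 4 or without HPBCD peri-infarct 3, 4 or 5, it was 3 without HPBCD peri-infarct 2, and it was 8 without vehicle peri-infarct 5.

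Of the neighboring lists in this comparison, 2 of 6 genes of myelin lipid synthesis rose, among them Aspa, the enzyme that frees acetate from N-acetylaspartate (0.73, SE 0.18, adjusted p = 0.0210 in edgeR). Of the 17 other mature genes 4 rose, led by Apod (1.75, SE 0.37, adjusted p = 0.0151 in edgeR) and Trf (1.29, SE 0.34, adjusted p = 0.0269 in edgeR). Nkx6-2 rose as 1 of 6 transcription factors (0.74, SE 0.22, adjusted p = 0.0358 in edgeR), and 3 of 8 genes of precursors and new oligodendrocytes rose, among them Bcas1 (0.75, SE 0.21, adjusted p = 0.0309 in edgeR).

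On the contralateral side all 9 genes had a lower mean in the libraries labelled HPBCD, and none was called. The log2 fold change was -0.53 for Mbp (SE 0.22, adjusted p = 0.579 in edgeR), -0.49 for Mag, -0.48 for Cldn11, -0.45 for Mobp, -0.35 for Mog, -0.31 for Ermn, -0.25 for Mal and -0.24 for Cnp and Opalin. Without vehicle contralateral 1, a library with 863 CPM of striatal genes, 7 of these moved nearer to 0 by more than 1.5 times: Mag to -0.29, Cldn11 to -0.28, Mog to -0.15, Ermn to -0.13, Opalin to -0.066, Mal to -0.049 and Cnp to -0.042. Mbp was then at -0.46 and Mobp at -0.37. At an unadjusted p under 0.05 edgeR passed 1 of 9, Mbp, and DESeq2 and limma voom called 0 of 9 after adjustment. Of 15469 genes tested 0% were called in edgeR and 56 genes in DESeq2, 1224 had an unadjusted p under 0.05, and 1.51% had groups that did not overlap, against 0 of 9 members. The median was -0.35 for the members and -0.01 over all genes.

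The treatment groups also differed in their spread, in both regions. In the HPBCD contralateral libraries the coefficient of variation of the 9 genes was 7.99% (Cnp) to 17.0% (Ermn). In the vehicle contralateral libraries it was 36.9% (Mbp) to 46.4% (Mog). Beside the infarct it was 12.7% (Mal) to 20.8% (Opalin) in HPBCD and 30.5% (Opalin) to 53.0% (Ermn) in vehicle libraries. The difference in spread was not tested. The vehicle contralateral libraries fell in 2 sets. Libraries 2 and 4 had summed member levels of 5365 and 3857 CPM, and libraries 1, 3 and 5 had 9511, 10052 and 9623 CPM. The HPBCD contralateral libraries, from 4675 to 5966 CPM, lay nearer to the lower set. Beside the infarct animals 1, 3 and 5 again lay above animals 2 and 4, but the values were graded and did not form 2 sets. Vehicle peri-infarct 1, 3 and 5 had 7538, 9456 and 11752 CPM, and libraries 2 and 4 had 5067 and 6064 CPM.

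By group mean, the order of levels was the same for 8 of 9 members: HPBCD contralateral lowest, then vehicle contralateral, vehicle peri-infarct and HPBCD peri-infarct. For Opalin the vehicle groups were exchanged, at 27.4 ± 10.7 CPM contralateral and 26.3 ± 8.01 CPM peri-infarct (SD, n = 5). Between neighbors among the lower 3 groups no test described above passed after adjustment, except for Cldn11 with the replicate block, and Mbp between the contralateral groups had an unadjusted p under 0.05. The top group differed from vehicle peri-infarct for Mobp and Cldn11.

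Genes of other cell types moved along with the myelin genes, and their values stand here for reading the results. The summed level of 6 neuronal genes was 8591 to 10514 CPM in vehicle contralateral, 5774 to 7724 CPM in vehicle peri-infarct, 10653 to 11280 CPM in HPBCD contralateral and 2911 to 5870 CPM in HPBCD peri-infarct libraries. All 6 were called lower beside the infarct in HPBCD animals and 3 of 6 in vehicle animals, with Snap25, a synaptic vesicle fusion protein, at -1.84 (SE 0.18, adjusted p = 3.34e-06 in edgeR) and -0.93 (SE 0.12, adjusted p = 0.00146 in edgeR). A negative interaction was called for 4 of 6, against 4.38% of all genes, and all 6 had a lower mean, 4 of them called, in the HPBCD than in the vehicle peri-infarct libraries. HPBCD peri-infarct 4, the library with the highest summed member level (16085 CPM), had the lowest neuronal sum (2911 CPM). Vehicle peri-infarct 5 went the other way. It had the highest member sum of its group (11752 CPM) and a neuronal sum of 7239 CPM, above those of vehicle peri-infarct 1, 3 and 4. The astrocyte sum of 5 genes was 6256 to 9270 CPM in HPBCD peri-infarct and 3519 to 7539 CPM in vehicle peri-infarct libraries. It was 2641 to 3717 CPM over both contralateral groups. Of the 5 genes, 3 were called higher beside the infarct in HPBCD animals and 3 in vehicle animals. Between treatments in peri-infarct tissue 4 were higher, 1 of them called, and 1 was lower. By group mean Gfap was at 3433 CPM in HPBCD and 1671 CPM in vehicle peri-infarct libraries, and Slc1a2 at 2548 and 2953 CPM. The part of these other cells in the level of the myelin genes was not tested.

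Genes of deeper structures also differed between libraries. The summed level of 3 striatal genes was 164 to 498 CPM in HPBCD peri-infarct libraries and 70.3 to 88.8 CPM in HPBCD contralateral libraries, and all 3 were called higher, with a median log2 fold change of 2.37. In vehicle libraries it was 94.2 to 551 CPM beside the infarct. On the vehicle contralateral side it was 64.4 to 80.8 CPM in libraries 2 to 5 and 863 CPM in library 1. Mbp and Mobp were higher in vehicle contralateral 3 and 5 than in library 1, but the other 7 members were highest in library 1, such as Cnp at 505 CPM against 385 and 393 CPM and Mal at 368 CPM against 280.2 and 280.3 CPM. Without vehicle contralateral 1, 0 of 9 members were called in the vehicle comparison, as with it, but the log2 fold changes of these 7 were higher: 0.40 in place of 0.19 for Cnp, 0.33 in place of 0.11 for Mag, 0.37 in place of 0.16 for Mog, 0.32 in place of 0.11 for Mal, 0.40 in place of 0.20 for Ermn, 0.86 in place of 0.65 for Cldn11 and 0.11 in place of -0.07 for Opalin. None of the 3 interaction calls passed without it.

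Of the 3 ependymal genes, all 3 were called higher beside the infarct in HPBCD animals and 2 of 3 in vehicle animals. Foxj1, the factor of motile cilia, was at 3.54 (SE 0.21, adjusted p = 2.98e-07 in edgeR) and 1.56 (SE 0.43, adjusted p = 0.0246 in edgeR). Ccdc153 had at most 1 count in any HPBCD contralateral library and a mean of 23.5 CPM in the HPBCD peri-infarct libraries. The 3 fibroblast genes summed to 149 to 537 CPM in HPBCD peri-infarct and 27.5 to 147 CPM in vehicle peri-infarct libraries. In the contralateral libraries they summed to 7.37 to 48.2 CPM. Cldn11, like the other myelin genes, also had its highest group mean in HPBCD peri-infarct libraries. Single vehicle libraries did not keep this order. Vehicle peri-infarct 4 had 147 CPM of fibroblast genes and 154 CPM of Cldn11, and vehicle peri-infarct 5 had 39.6 and 289 CPM. All 3 fibroblast genes were called higher beside the infarct in HPBCD and 1 of 3 in vehicle animals. Of 3 markers of Schwann cells, the myelinating cells of peripheral nerve, the summed level was at most 3.05 CPM in any library. Pmp2 had 0 counts in all 20 libraries but shares 1224 bp of exon with another gene model, and of the 2 markers that passed the filter 1, Prx, was called (0.69, SE 0.25, adjusted p = 0.0351 in edgeR, in the HPBCD region comparison). The part of the dissection, of fibroblasts and of ependyma in the results was not tested.

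In vehicle animals 4 of 4 microglial and 4 of 5 phagocyte genes rose beside the infarct, where no myelin gene was called, with Gpnmb, a gene of lipid-laden phagocytes, at 4.27 (SE 0.73, adjusted p = 0.00373 in edgeR). In HPBCD animals 4 of 4 and 5 of 5 rose, with Gpnmb at 4.87 (SE 0.74, adjusted p = 0.000126 in edgeR). The interaction was called for 0 of these 9 genes in edgeR. The 3 neurofilament genes of the axon fell in both treatments, Nefh by 2.12 on the log2 scale in HPBCD (SE 0.25, adjusted p = 1.46e-05 in edgeR) and by 1.41 in vehicle animals (SE 0.18, adjusted p = 0.00146 in edgeR).

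**Figure D4:**
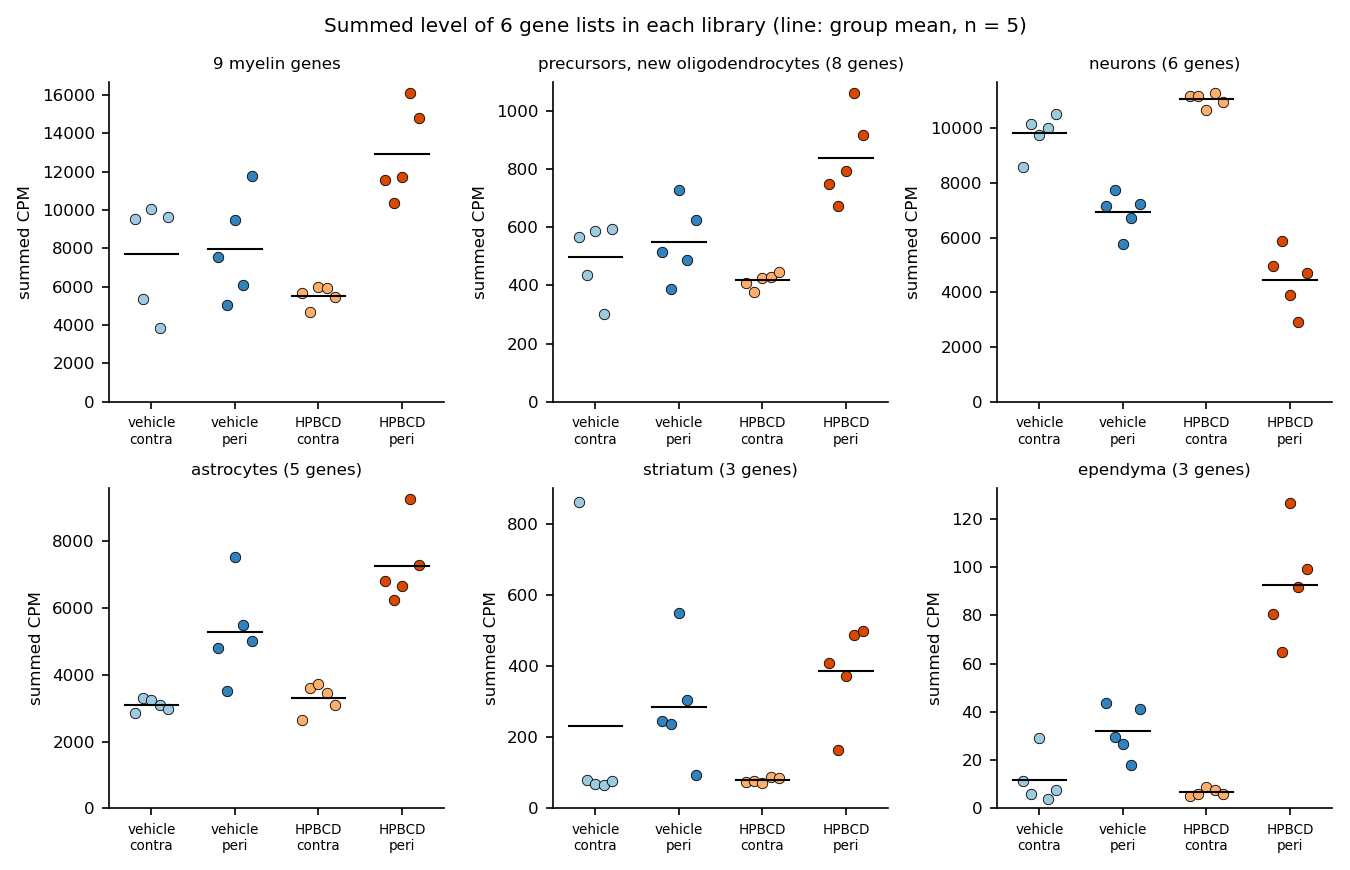
Summed CPM of 6 gene lists (vertical axes, linear, from 0) in each of the 20 libraries, by group; points are libraries and lines are group means of 5. The HPBCD peri-infarct group has the highest mean sum of the myelin genes (range 10357 to 16085 CPM) and the lowest mean neuronal sum (range 2911 to 5870 CPM), each overlapping the vehicle peri-infarct group, and vehicle contralateral 1 stands alone in the striatal panel at 863 CPM.

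The levels of the 9 genes varied together across libraries. Over the 36 pairs of members, Pearson's r of log2 CPM over the 20 libraries ranged from 0.74 (Opalin with Cldn11) to 0.99 (Mbp with Mobp), with a median of 0.94. After each group's mean was subtracted, r ranged from 0.79 (Opalin with Ermn) to 0.99, with a median of 0.92. These libraries share animals, regions and the make-up of the tissue, and the values are a description. Among the 75 other listed genes, those most like the mean of the members over the 20 libraries were Nkx6-2, a transcription factor of the lineage (r = 0.983), Gjb1, a gap junction protein (0.981), Tmem88b (0.977), Sox10 (0.971), and Car2, carbonic anhydrase II (0.970).

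Since the members moved together, the sequence before their starts is shown for 3 of them: Mobp and Cldn11, the pair called between treatments, and Opalin, the member with the lowest values. The windows come from RefSeq promoters of build GRCm38.p6, which held 8 of the 9 members, and cover the bases from 250 to 51 before the annotated start, 5' to 3' on the gene's strand. Capitals mark ACAAAG or its reverse complement CTTTGT, the core bound by SOX proteins, a family that includes SOX10. On the plus strand, the Mobp window is chr9:120149492-120149691 and the Cldn11 window chr3:31149670-31149869; the Opalin window is chr19:41077164-41077363 on the minus strand.
Mobp: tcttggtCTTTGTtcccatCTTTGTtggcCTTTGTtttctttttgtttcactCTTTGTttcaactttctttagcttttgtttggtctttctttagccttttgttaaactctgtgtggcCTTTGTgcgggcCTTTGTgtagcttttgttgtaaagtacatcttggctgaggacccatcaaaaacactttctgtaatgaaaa
Cldn11: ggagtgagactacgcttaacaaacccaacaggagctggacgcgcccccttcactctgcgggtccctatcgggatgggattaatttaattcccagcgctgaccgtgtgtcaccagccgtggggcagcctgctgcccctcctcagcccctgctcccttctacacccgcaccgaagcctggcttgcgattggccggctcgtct
Opalin: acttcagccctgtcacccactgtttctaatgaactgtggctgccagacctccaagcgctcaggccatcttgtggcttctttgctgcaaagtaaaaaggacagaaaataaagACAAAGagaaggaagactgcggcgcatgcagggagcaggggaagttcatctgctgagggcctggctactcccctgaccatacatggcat

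ACAAAG, read on both strands, had 6 matches in the Mobp window, 1 in the Opalin window and none in the Cldn11 window. The 8 members with a promoter have 10 windows in all, 3 of them for Mag. ACAAAG was found in 5 of the 10, those of Mobp, Cnp and Opalin and 2 of Mag, against 13.6% of all 32851 promoter windows of the same 200 bases. The 2 Mag windows overlap and hold the same match, so 4 of the 8 members had one. The letters CTGGCAC and CTGGTAC, forms of the motif of MYRF, were also searched on both strands. CTGGCAC was found in 2 of the 10 windows, that of Cnp and 1 of Mag, against 3.35% of all windows, and CTGGTAC in 1 of the 10, that of Mog, against 1.54%. Of the 3 genes shown, which were picked by their results, Mobp, with 6 matches of ACAAAG, and Cldn11, with none, were both called between treatments. Opalin, with 1, was not. Whether genes with and without these letters differ in the size of their change was not tested. A match of letters is a description of the window and not a binding site.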

How the data were processed

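RNA from the dissected peri-infarct and contralateral tissue was made into stranded mRNA libraries and sequenced as paired ends. The authors demultiplexed reads with bcl2fastq, trimmed them with Trimmomatic 0.32, aligned them to GRCm38 with STAR 2.5.2b and counted them with htseq-count. The HTSeq version, the annotation release and the strand option are not given in the sources used here. The deposited values are raw counts per gene, 1 table per library. Of 46078 gene identifiers, 98.2% were found in GENCODE M21. The 5 summary lines that name no gene were left out; reads outside genes were 4.39% to 9.5% of each table, ambiguous reads 3.94% to 8.03% and reads aligned more than once 16.6% to 24.3%.

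Each comparison was fitted on its own 10 libraries, and the interaction on all 20, with edgeR 4.0.16 (filterByExpr, TMM, glmQLFit and glmQLFTest) in R 4.3.3, with Benjamini-Hochberg adjustment over all genes tested and a threshold of 0.05. The SE is the log2 fold change divided by the square root of F, and 95% intervals use the total degrees of freedom of the fit. Log2 CPM used a prior count of 2. Functions were tested on simulated data. Alternatives were DESeq2 1.42.0, limma 3.58.1 voom with quality weights, other scaling factors, no filter, all groups in 1 fit, a replicate block and leaving out each library. Regions were paired by the animal identifier in the deposited file names; over the 10 animals, the correlation of the paired deviations from the group means was 0.0876 on average and over 0.1 in 4.

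The members and the 14 other lists (75 genes) were chosen with earlier results of these data known. All 9 members are named in every comparison, along with up to 2 called genes with the largest rise and 2 with the largest fall from lists described there, and the 5 genes most like the members. A further 2 genes of these lists are not reported here.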

Additional observations from a re-analysis of the deposited data

Results flagged for a closer look

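In HPBCD contralateral 1 the level of Opalin was 29.2 CPM, far from the next library of its group at 22.1 CPM and the lowest at 21.3 CPM. The gap to its neighbor was 0.89 of the range of the 5 libraries. The threshold for listing such a gap is one that chance passes in about 1 in 20 groups, and 36 combinations of gene and group were examined.

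The effect of region differed between the treatments for 3 members, by the test of the interaction itself in edgeR. The interaction was 1.20 for Mbp, 1.20 for Mobp and 1.35 for Cldn11 on the log2 scale. These calls depended on single libraries. With 1 library left out, Cldn11 and Mobp passed in 9 of 20 fits and Mbp in 8. In the same libraries, the within-animal difference in log2 CPM of each of the 3 was higher in every HPBCD animal than in any vehicle animal. The same was so for every other member except Opalin, and the treatments were separate for 10% of all genes tested.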

How the results depend on the processing

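In the HPBCD animals the direction of all 9 members held under every alternative run, and 9 of 9 were called under each of them except all 4 groups in 1 fit, where 8 were called. The number called was 9 in each fit that left out a library. In vehicle animals 0 of 9 were called under all alternatives except the replicate block that paired the regions of an animal, where 1 was called (Cldn11), and 0 with any library left out. The small vehicle values of Mbp, Mobp and Mag changed sign: Mbp was at -0.0032 with DESeq2 and with RLE factors, -0.00056 without the filter and -0.16 with limma voom, which also gave -0.13 for Mobp and -0.018 for Mag. Leaving out single vehicle libraries moved Mbp from -0.16 to 0.15, Mobp from -0.15 to 0.16, Mag from -0.12 to 0.33, Cnp from -0.0093 to 0.40, Mog from -0.075 to 0.37, Mal from -0.11 to 0.32, Ermn from -0.15 to 0.40, Opalin from -0.23 to 0.11 and Cldn11 from 0.42 (without vehicle peri-infarct 5) to 0.86, none of them called.

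Between treatments in the peri-infarct tissue, 2 members were called; 6 were called with DESeq2, 7 with limma voom, 4 with all 4 groups in 1 fit, and from 0 to 8 with a library left out. With a replicate block the count was 7, but between treatments the numbers do not mark shared animals. For the interaction, 3 were called; 7 were called with limma voom, 8 with the replicate block of animals, and from 0 to 8 with a library left out. On the contralateral side 0 of 9 were called under every alternative. The causes of these moves were not tested. The number of genes called in the whole table moved too, from 3195 to 5065 with limma voom in vehicle animals and from 3471 to 6012 in the peri-infarct comparison; for the interaction it was 1577, 2514 with DESeq2 and 4110 with limma voom. With a library left out it ranged from 2000 to 3920 in vehicle animals, from 823 to 5339 in the peri-infarct comparison and from 529 to 3121 for the interaction. On the contralateral side it was 0 in edgeR, 56 with DESeq2, 2 without the filter and 1 with the replicate block. Other scaling factors moved the median of all genes by less than 0.1 on the log2 scale. Depth was not varied in these alternatives.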
